A study of Danio rerio with 8 samples.

Results

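Cholesterol is built from acetyl-CoA through the mevalonate pathway, and 32 zebrafish genes of this pathway and of its control by SREBP transcription factors were followed here in macrophage-lineage cells of rraga mutant larvae. rraga encodes RagA, a GTPase that reports nutrient state at the lysosome. The genes were chosen by name as enzymes of the early mevalonate steps, enzymes that make and modify squalene and sterols, or regulators with uptake and esterification genes. Of the 32 names, 31 matched 1 gene each among the 24221 genes of the deposited counts, and mvd is not analysed here. A filter on low counts kept 29 of the 31 and 16086 of all genes, and insig1 and soat2 had too few reads to test. All larvae were TL fish collected 6 days post fertilization and raised with PTU, which blocks pigment, and all carried the mpeg:GFP reporter, in which a promoter active in macrophages and microglia drives GFP. GFP-positive cells were sorted from dissociated larvae, and 4 libraries were made from rraga mutants and 4 from the wild-type siblings. Each genotype has libraries 1, 2, 4 and 5. The labels name neither the rraga allele nor the number of larvae behind a library, and the titles call the libraries biological replicates without saying which larvae went into each, so p-values speak of the spread between these libraries.

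The pathway begins with the condensation of acetyl-CoA to HMG-CoA, which HMG-CoA reductase turns into mevalonate, and it continues through isoprenoid units to farnesyl diphosphate. That intermediate feeds both protein prenylation and squalene, the entry to the sterol ring and its late modifications. When sterols in the endoplasmic reticulum are low, SCAP escorts SREBP proteins to the Golgi, where proteases release a factor that activates most genes of the pathway together with the LDL receptor gene. INSIG proteins retain SCAP when sterols are high. In mammalian cells mTORC1, which the Rag GTPases bring to the lysosome, promotes SREBP activity, and macrophages also take up and store much cholesterol from the cells they engulf.

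Total counts were 24940664 to 30911560 in mutant libraries and 25530526 to 29147340 in sibling libraries. The pathway genes together took 0.0574% to 0.0705% of mutant counts and 0.0569% to 0.0702% of sibling counts. The cells were labelled macrophages, and 18 lineage markers, mpeg1.1, csf1ra, marco and spi1b among them, summed to 10673 to 15881 CPM (counts scaled to library size) in mutants and 12344 to 15744 CPM in siblings. The closeness of these sums rests on grn1, a progranulin gene, which rose 13.9-fold. Without it, an omission chosen after its values were seen, the sums were 9807 to 12553 CPM in mutants and 12055 to 15658 CPM in siblings. Of these 18 markers 2 rose and 8 fell, or 11.1% and 44.4%, against 14.5% and 13.9% of all tested genes. mpeg1.1 itself fell from 231 ± 13.2 to 65.5 ± 23.7 CPM (SD, n = 4). Of 9 tested microglia markers 3 rose and 4 fell, with sums of 7307 to 8284 CPM in mutants and 7482 to 13539 CPM in siblings. The largest term of these sums is apoeb, which did not pass the test. Next in mutants came havcr1, which rose from 1481 ± 279 to 2332 ± 318 CPM (SD, n = 4). Next in siblings came lgals3bpb, which fell from 1730 ± 162 to 493 ± 56.8 CPM. The median log2 fold change of the 9 microglia markers was -0.98. rraga itself held 193, 220, 195 and 189 CPM in mutant libraries 1, 2, 4 and 5 and 129, 135, 137 and 114 CPM in siblings. Its transcript was 1.55-fold higher in the mutants (log2 fold change 0.63, SE 0.098, adjusted p = 0.00141, edgeR). A count over the whole gene does not show whether its product works, so it does not check the genotype labels, from which every direction below is taken. In sorted bulk cells, fewer cells of a type and less RNA per cell cannot be told apart.

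In the mutants the reductase gene hmgcrb and the isomerase gene idi1 rose, and the sterol enzyme genes fdft1, cyp51, msmo1, nsdhl and hsd17b7 fell. ldlra, an LDL receptor gene, fell, and the cholesterol esterification gene soat1 rose. Of 29 tested genes 3 rose and 6 fell, at an adjusted p under 0.05 in the quasi-likelihood test of edgeR, adjusted over all tested genes. Over all 16086 genes 14.5% rose and 13.9% fell, or 28.4% in either direction. The 9 changed pathway genes are 31% of those tested, a share near that background. With replicate number as a block, which pairs the mutant and sibling library of the same number, 5 rose and 7 fell, against 17.8% and 16.6% of all genes.

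The classes were counted apart, and the difference between classes was not tested. Among 10 early mevalonate genes 2 rose and 0 fell, with a median log2 fold change (mutant over sibling) of 0.31. Among 12 squalene and sterol genes 0 rose and 5 fell, with a median of -1.05. Among the 7 tested genes of regulation, uptake and esterification 1 rose, 1 fell and the median was -0.16. The shares that rose and fell were 20% and 0% of the early genes and 0% and 41.7% of the squalene and sterol genes. In the last class they were 14.3% each way, against 14.5% and 13.9% of all tested genes. The median was -0.21 over the 29 genes and -0.09 over all tested genes.

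**Figure D1:**
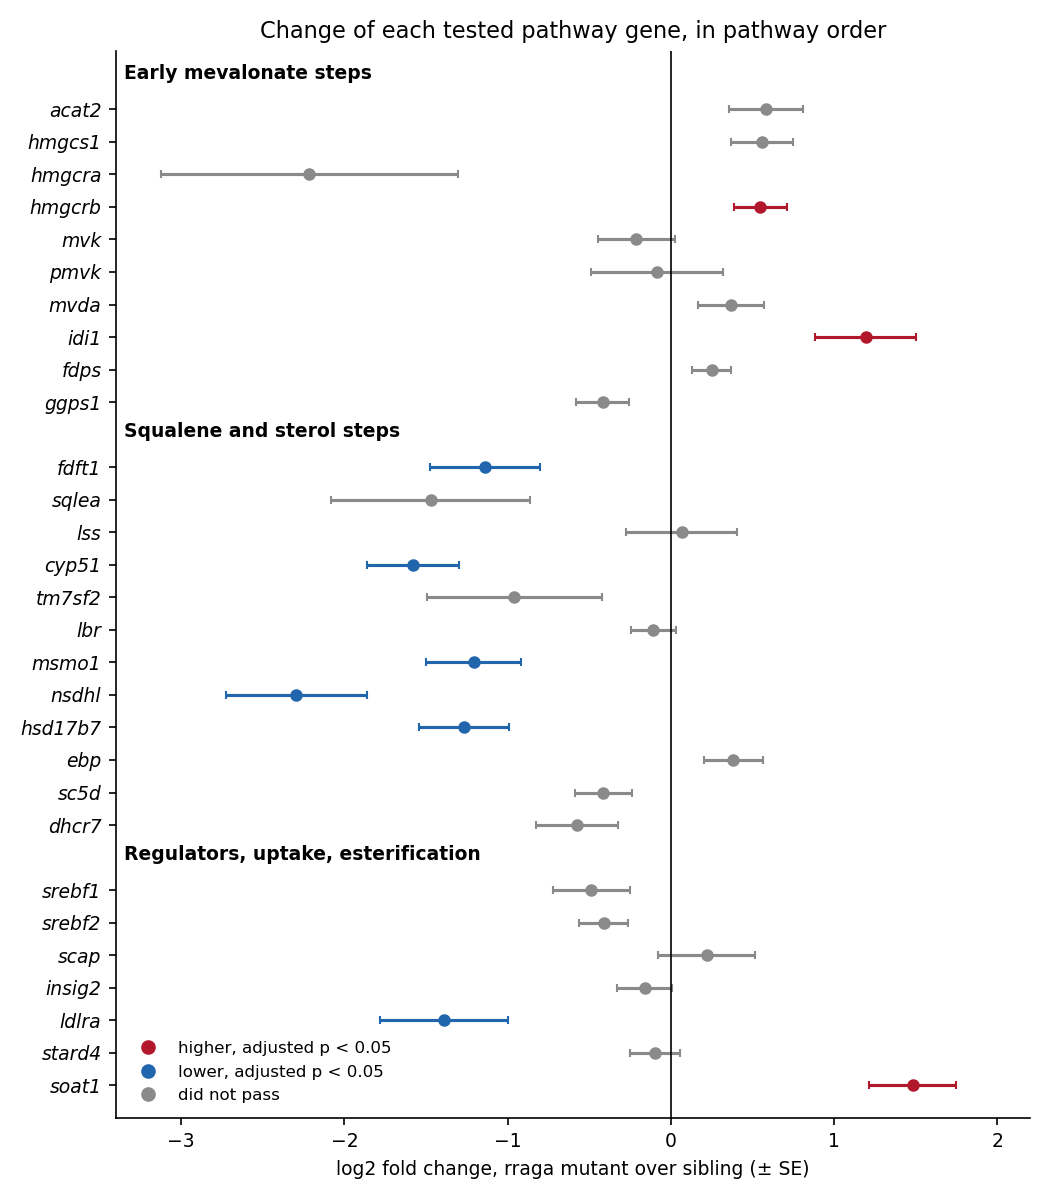
Log2 fold change of each of the 29 tested genes, mutant over sibling, with its standard error, listed in pathway order within each class. Red and blue points passed the test. Of the early genes hmgcrb and idi1 lie to the right as changed genes, and the 5 changed sterol genes all lie to the left.

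Per kilobase of gene model, so that genes can be set side by side, the pathway in sibling cells spanned a wide range of levels. The highest was hmgcrb at 37.3 ± 7.30 CPM per kilobase (SD, n = 4). It was followed by srebf2, the SREBP gene that drives sterol synthesis, at 22.2 ± 3.61, by lbr, a nuclear envelope protein with sterol reductase activity, at 18.5 ± 1.73, and by stard4, a sterol transfer protein, at 16.3 ± 2.77. Next came hmgcs1 at 14.7 ± 2.46 and insig2 at 14.6 ± 2.19 CPM per kilobase. The libraries of hmgcrb and srebf2 did not overlap, and those of each later neighbouring pair did. Most sterol enzymes lay lower, from cyp51 at 8.47 ± 1.99 to tm7sf2 at 0.677 ± 0.171 CPM per kilobase.

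The INSIG genes stood far apart. insig1 had 0 or 1 read in each of the 8 libraries, while insig2 had 337 to 525 reads. INSIG1 is in mammals itself an SREBP target. Whether the insig1 gene model used for counting is complete was not checked, so its low count does not show that the gene is silent. insig2 stood at 12.3, 17.6, 14.8 and 13.8 CPM in mutant libraries 1, 2, 4 and 5 and at 12.7, 17.9, 17.7 and 17.1 CPM in the sibling libraries of those numbers. The genotypes overlapped, and insig2 did not pass the test (log2 fold change -0.16, SE 0.168, adjusted p = 0.528, edgeR).

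**Figure D2:**
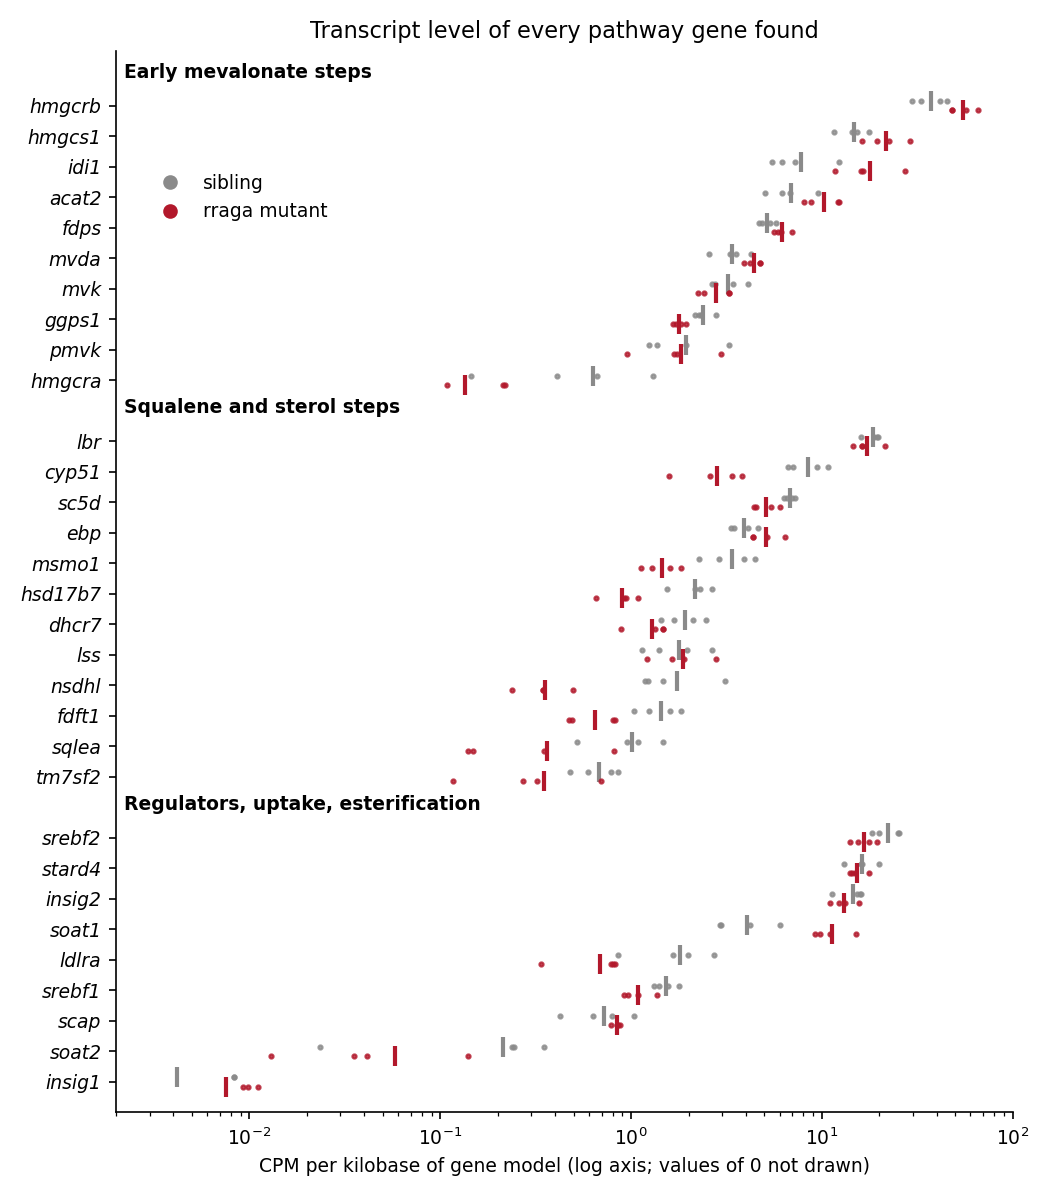
Transcript level of the 31 genes found, in CPM per kilobase of gene model on a log axis. Dots are libraries (n = 4 per genotype, values of 0 not drawn) and vertical ticks are means. hmgcrb is highest in both genotypes, and insig1 lies at the bottom. Mutant values of cyp51, msmo1, hsd17b7, nsdhl and fdft1 all lie left of the sibling values. Those of ggps1, sc5d and ldlra do too, as in 15.7% of all tested genes.

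Among the early mevalonate steps, HMG-CoA reductase, the step that statins block, is encoded by hmgcra and hmgcrb in zebrafish. Sibling libraries 1, 2, 4 and 5 held 101, 155, 142 and 113 CPM of hmgcrb and the mutant libraries 164, 225, 195 and 164 CPM. Every mutant library lay above every sibling library, as it did for 15.7% of all tested genes. hmgcrb rose 1.46-fold, a log2 fold change of 0.55 (SE 0.164, adjusted p = 0.0322, edgeR). It did not pass without mutant library 2 (adjusted p = 0.0846) or 4 (0.0664), without sibling library 1 (0.0818) or 5 (0.0768), with upper-quartile factors (0.0504) and scaled by library size alone (0.0981). Under the block by replicate number adjusted p was 0.00164, and hmgcrb was higher in the mutant library of every number.

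hmgcra was a minor transcript. It held 2.84, 1.77, 0.626 and 5.61 CPM in sibling libraries 1, 2, 4 and 5 and 0.913, 0, 0.934 and 0.465 CPM in the mutant libraries. The genotypes overlapped, since sibling library 4 lay among the mutants. The difference did not pass (log2 fold change -2.21, SE 0.909, adjusted p = 0.101, edgeR), although it did by DESeq2 (0.040).

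Of the reads of both reductase genes hmgcra took 2.73%, 1.13%, 0.438% and 4.72% in sibling libraries 1, 2, 4 and 5. In the mutants it took 0.552% (95% Clopper-Pearson interval 0.358 to 0.814), 0 of 5137 reads, 0.476% (0.305 to 0.707) and 0.283% (0.155 to 0.475). For mutant library 2 the interval reaches up to 0.0718%, and the limit that a count of 0 allows, taken as 3 counts, is 0.0584%. Intervals and limits cover counting error only, and the labels do not say how reads matching both genes were counted, so the split between these paralogs is uncertain.

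idi1 encodes isopentenyl diphosphate isomerase, which interconverts the isoprenoid building blocks. It stood at 23.7, 17.9, 40.1 and 20.2 CPM in sibling libraries 1, 2, 4 and 5 and at 53.6, 52.3, 88.9 and 38.5 CPM in the mutants. The genotypes overlapped, because sibling library 4 lay above mutant library 5, but in each number the mutant library was higher. Library 4 was the highest in both genotypes. idi1 rose 2.29-fold (log2 fold change 1.2, SE 0.311, adjusted p = 0.0181, edgeR, and 0.000589 with replicate number as a block). Without sibling library 1 it did not pass (adjusted p = 0.0521).

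hmgcs1 encodes the synthase that makes HMG-CoA. It held 39.9, 60.5, 52.3 and 49.6 CPM in sibling libraries 1, 2, 4 and 5 and 76.7, 99.0, 55.5 and 66.8 CPM in mutants. The mutant was higher in each number, while mutant library 4 lay below sibling library 2. The log2 fold change of 0.56 (SE 0.191) missed the threshold (adjusted p = 0.0548, edgeR) and passed with replicate number as a block (0.0294), by DESeq2 (0.0166), by limma-voom (0.0327), with median-of-ratios factors (0.0427), without the filter (0.0493), and without mutant library 4 (0.0244) or sibling library 2 (0.0442).

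acat2, for the thiolase that joins acetyl-CoA units, gave 9.81, 18.5, 12.1 and 13.2 CPM in siblings and 23.5, 24.0, 15.6 and 17.1 CPM in mutants. It was likewise higher in the mutant library of every number (log2 fold change 0.58, SE 0.226). It did not pass edgeR's test (adjusted p = 0.0847), and did with replicate number as a block (0.0467), by DESeq2 (0.0372), by limma-voom (0.0428) and without sibling library 2 (0.0258). The number of early genes that rose therefore went from 0 without sibling library 1, through 1 without mutant library 2 or sibling library 5, to 4 with replicate number as a block or without sibling library 2.

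The remaining early genes did not pass. fdps, which makes farnesyl diphosphate, stood at 33.4 ± 3.23 CPM in mutants against 28.0 ± 2.63 CPM in siblings, and mvda, the mevalonate diphosphate decarboxylase gene, at 7.95 ± 0.763 against 6.16 ± 1.25 CPM. The kinase genes mvk and pmvk had log2 fold changes of -0.21 (SE 0.235) and -0.08 (SE 0.407). The span of pmvk overlaps that of eaf1 on the other strand. Whether reads of these genes were mixed was not checked, so the value of pmvk is uncertain. ggps1, which makes geranylgeranyl diphosphate for protein prenylation, was at 7.39 ± 0.517 against 9.87 ± 1.15 CPM. All 4 mutant libraries lay below the siblings, but ggps1 did not pass (log2 fold change -0.42, SE 0.160, adjusted p = 0.0823, edgeR), except under library-size scaling (0.0241) or the stricter filter (0.0318).

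Among the squalene and sterol steps, cyp51 encodes lanosterol 14-alpha-demethylase, an early step of ring modification. It held 24.4, 18.3, 28.1 and 17.2 CPM in sibling libraries 1, 2, 4 and 5 and 6.76, 8.73, 9.85 and 4.12 CPM in mutants. The lowest sibling library was well above the highest mutant library. cyp51 fell by 1.58 on the log2 scale (SE 0.281, adjusted p = 0.00294, edgeR), and it was 2.99-fold lower.

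The step after cyp51 is the reduction that lbr and tm7sf2 catalyse, and neither gene passed the test (adjusted p = 0.613 and 0.220, edgeR). The genes of the enzymes that then remove the C4 methyl groups fell. msmo1, the C4-methylsterol oxidase gene, went from 7.11, 4.62, 3.64 and 6.20 CPM in sibling libraries 1, 2, 4 and 5 to 2.56, 1.80, 2.92 and 2.06 CPM in mutants. hsd17b7, which codes for the ketosterol reductase, went from 4.37, 5.37, 4.66 and 3.12 to 1.90, 1.84, 1.32 and 2.19 CPM. In both genes the groups did not overlap. msmo1 fell by 1.21 (SE 0.290, adjusted p = 0.0126) and hsd17b7 by 1.27 on the log2 scale (SE 0.277, adjusted p = 0.00811, edgeR).

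nsdhl, for the sterol dehydrogenase that acts between those enzymes, had the largest fall of the changed pathway genes. It held 2.48, 5.24, 2.07 and 2.00 CPM in sibling libraries 1, 2, 4 and 5 and 0.584, 0.833, 0.584 and 0.399 CPM in mutants, or 12 to 19 reads per mutant library. The groups did not overlap, and sibling library 2 stood high. nsdhl fell by 2.29 on the log2 scale (SE 0.434, adjusted p = 0.00399, edgeR), and by 1.83 without sibling library 2.

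nsdhl is also the only one of the 29 genes on the chromosome of rraga. It lies at GRCz11 chromosome 14, 14646717 to 14659127, 552 kb from rraga at 14027427 to 14094406. Sequence differences linked to the mutant allele and the loss of rraga cannot be told apart for a gene this close. Of 17 tested genes within 1 Mb of rraga 2 rose and 3 fell, or 29.4%, against 28.4% of all genes. These 17 include rraga itself, among those that rose, and nsdhl, among those that fell. The share is therefore not one of neighbouring genes alone.

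fdft1 encodes squalene synthase, the step that commits farnesyl diphosphate to sterols. Its levels were 2.41, 2.01, 3.56 and 3.12 CPM in sibling libraries 1, 2, 4 and 5 and 0.949, 0.921, 1.56 and 1.59 CPM in mutants. The groups did not overlap, and fdft1 fell by 1.14 on the log2 scale (SE 0.336, adjusted p = 0.0311, edgeR). fdft1 no longer passed without mutant library 1 (adjusted p = 0.0786) or 2 (0.0799), without sibling library 1 (0.0525), 4 (0.0853) or 5 (0.0821), and without the filter on low counts (0.0591).

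sqlea, for the squalene epoxidase that acts after it, held 3.06, 2.28, 2.00 and 1.08 CPM in siblings and 0.292, 1.71, 0.311 and 0.731 CPM in mutants. Mutant library 2 lay among the siblings. The log2 fold change of -1.47 (SE 0.609) did not pass (adjusted p = 0.103, edgeR), and passed without that library (-2.22, adjusted p = 0.0205) and by limma-voom (0.0452).

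**Figure D3:**
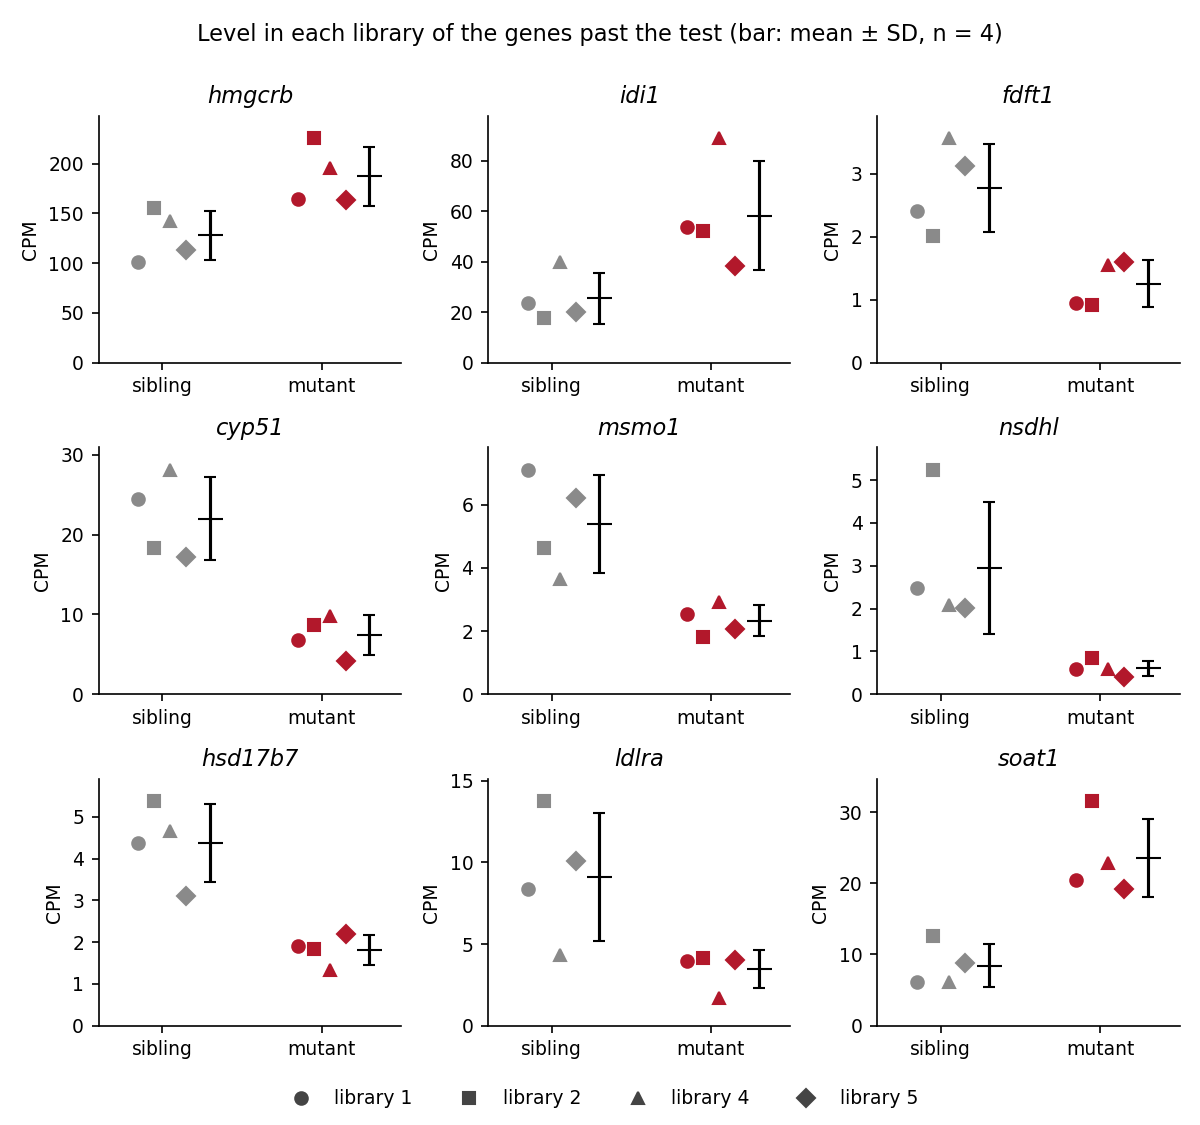
CPM of the 9 genes past the test in each library, with the mean and SD of each genotype (n = 4) as a bar to the right. Symbols mark the library number, which pairs a mutant with a sibling library. Groups overlap in idi1 and in none of the other 8 genes, which were drawn because they passed the test. Of all tested genes 15.7% had every mutant library above every sibling library, and 15.7% had every one below.

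Other sterol enzymes did not pass. lbr, the most abundant of them per kilobase, held 90.7, 77.0, 93.5 and 95.5 CPM in sibling libraries 1, 2, 4 and 5 and 70.3, 78.2, 104 and 78.8 CPM in mutants, and the genotypes overlapped (log2 fold change -0.11, SE 0.137, adjusted p = 0.613, edgeR). tm7sf2, whose product catalyses the same reduction, stood at 0.600 ± 0.417 CPM in mutants against 1.16 ± 0.293 CPM in siblings. ebp, the sterol isomerase gene, was at 15.9 ± 2.98 against 12.2 ± 1.91 CPM and was the one late gene, beside lss, with a positive log2 fold change (0.38, SE 0.179, adjusted p = 0.145). sc5d, the sterol desaturase gene, held 9.0, 8.47, 9.35 and 8.14 CPM in siblings and 5.81, 7.81, 6.97 and 5.68 CPM in mutants. These groups did not overlap, and sc5d missed the threshold (log2 fold change -0.41, SE 0.176, adjusted p = 0.112), passing under library-size scaling (0.0279) or the stricter filter (0.0388).

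dhcr7, which makes cholesterol from 7-dehydrocholesterol, was at 5.12 ± 1.08 against 7.63 ± 1.83 CPM (adjusted p = 0.117), and lss, for the cyclase that forms lanosterol, at 4.81 ± 1.68 against 4.60 ± 1.72 CPM (adjusted p = 0.909). lss overlaps mcm3ap on the same strand and dhcr7 overlaps nadsyn1 on the other, and each of these neighbours has more reads than the sterol gene, so the values of lss and dhcr7 are uncertain. None of the 9 changed pathway genes overlaps another gene holding at least 10% of its reads.

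Apart from cyp51, the falling sterol genes were weakly expressed. In each list of markers of other cell types most tested genes had negative log2 fold changes. Of 12 tested enterocyte markers 0 rose and 8 fell, and their sum was 197 to 406 CPM in mutants against 515 to 765 CPM in siblings. Of 13 keratinocyte markers 0 rose and 5 fell, with sums of 474 to 1160 against 1269 to 2181 CPM. Of 17 hepatocyte markers 1 rose and 3 fell, with sums of 148 to 410 against 253 to 1273 CPM, the highest in sibling library 2. The shares that fell were 66.7% of enterocyte, 38.5% of keratinocyte and 17.6% of hepatocyte markers, against 13.9% of all tested genes. With replicate number as a block the hepatocyte list held 0 genes that fell. No listed marker of these 3 cell types was at 0 in all libraries.

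The skeletal muscle sum was 593 to 5081 CPM in mutants and 3855 to 6157 CPM in siblings, with 0 of 14 markers changed (0 at the threshold by edgeR without the block, and 9 that fell with it). Of 13 markers of neurons and myelinating glia 1 rose and 1 fell, with sums of 157 to 204 against 144 to 200 CPM. The closeness of these sums rests on mbpb, which rose. It averaged 115 of 168 CPM in siblings and 154 of 181 CPM in mutants, while 9 of the 13 markers had negative log2 fold changes. Of 9 neutrophil markers 2 rose and 2 fell, with sums of 2138 to 4201 against 1382 to 3820 CPM. These calls are 7.69% each way for neurons and glia and 22.2% each way for neutrophils. Of all tested genes 14.5% rose and 13.9% fell. Median log2 fold changes were -2.25 for enterocyte, -1.7 for hepatocyte, -1.1 for keratinocyte and -1.1 for skeletal muscle markers. They were -0.99 for neurons and glia, -0.61 for neutrophil and -0.69 for macrophage lineage markers. The median was -1.05 for the squalene and sterol genes and -0.09 for all tested genes. The part of other cells in the lower sterol gene levels was not tested. Their sibling levels ran from 2.77 CPM for fdft1 to 22.0 CPM for cyp51. Of the 23 pathway genes between 1 and 25 CPM in siblings 1 rose and 6 fell, where 10.6% and 12.8% of all genes at that level did. Of the 6 at 25 CPM or more 2 rose and 0 fell, against 24.7% and 20.9%. This division by level was chosen after the values were seen.

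**Figure D4:**
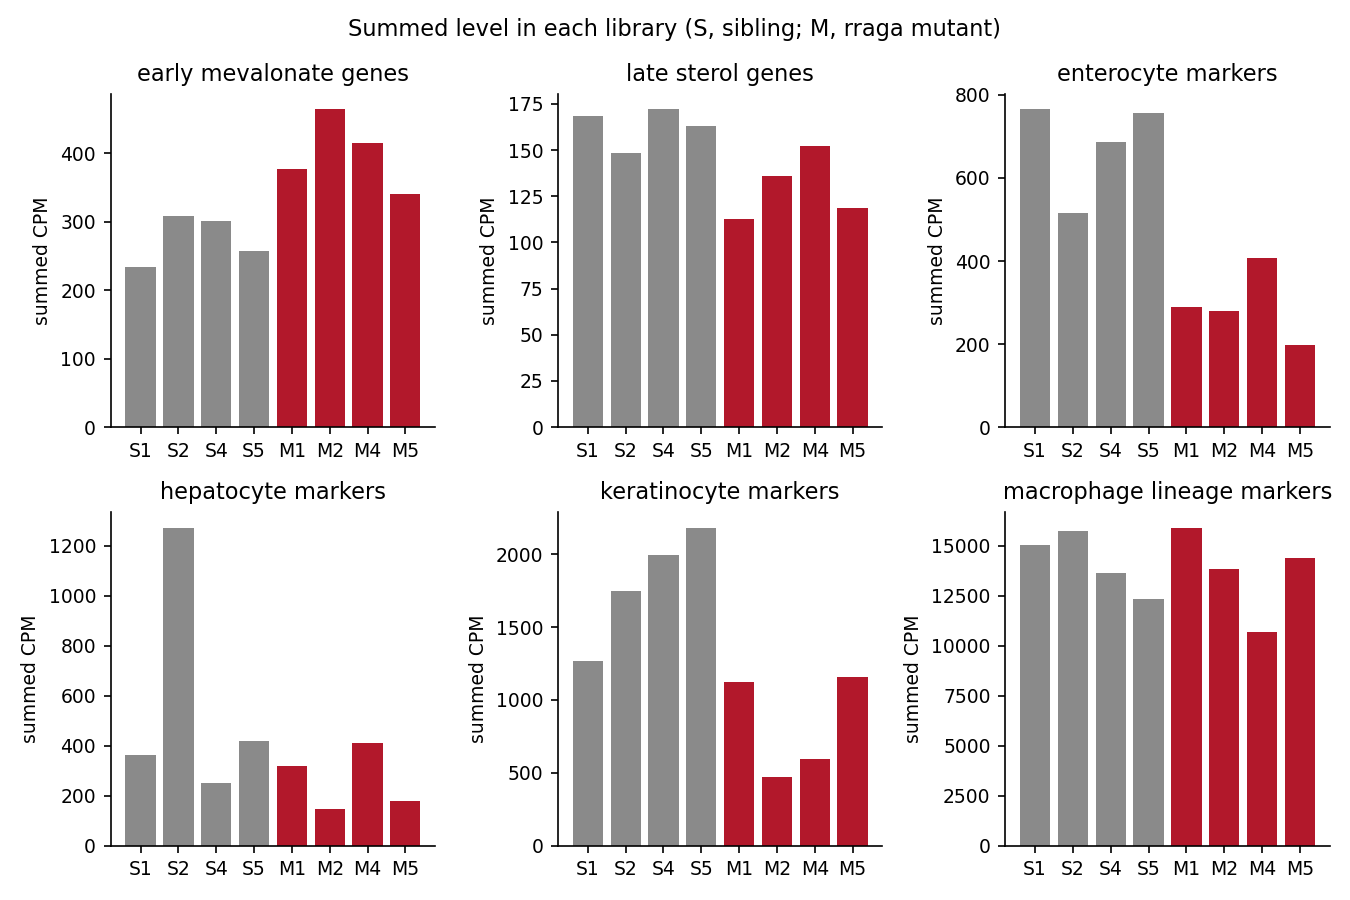
Summed CPM in each sibling (S) and mutant (M) library for the early and the late pathway genes and for markers of enterocytes, hepatocytes, keratinocytes and the macrophage lineage. Early pathway sums are 341 to 464 CPM in mutants against 233 to 308 CPM in siblings, and enterocyte sums are lower in every mutant library than in every sibling library.

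Summed over a class, the early genes reached 377, 464, 415 and 341 CPM in mutant libraries 1, 2, 4 and 5 and 233, 308, 302 and 257 CPM in siblings, a sum that hmgcrb dominates. The late genes summed to 113, 136, 152 and 119 CPM in mutants and 169, 149, 172 and 163 CPM in siblings, a sum in which lbr is the largest term. The early sums did not overlap between genotypes, and the late sums did.

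Ratios of reads within a library do not depend on how libraries are scaled. Sibling libraries 1, 2, 4 and 5 held 0.971, 0.978, 1.43 and 1.18 reads of idi1 per read of cyp51, and the mutant libraries held 7.94, 5.99, 9.03 and 9.34. The genotypes were widely apart in this ratio, which combines a gene that rose and one that fell and was chosen after their values were seen. For hmgcs1 the ratio to cyp51 was 1.64, 3.30, 1.86 and 2.89 in siblings and 11.4, 11.3, 5.63 and 16.2 in mutants, also without overlap. The genotypes did not overlap in cyp51 alone and did in hmgcs1 alone, so this ratio is no further result for hmgcs1.

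**Figure D5:**
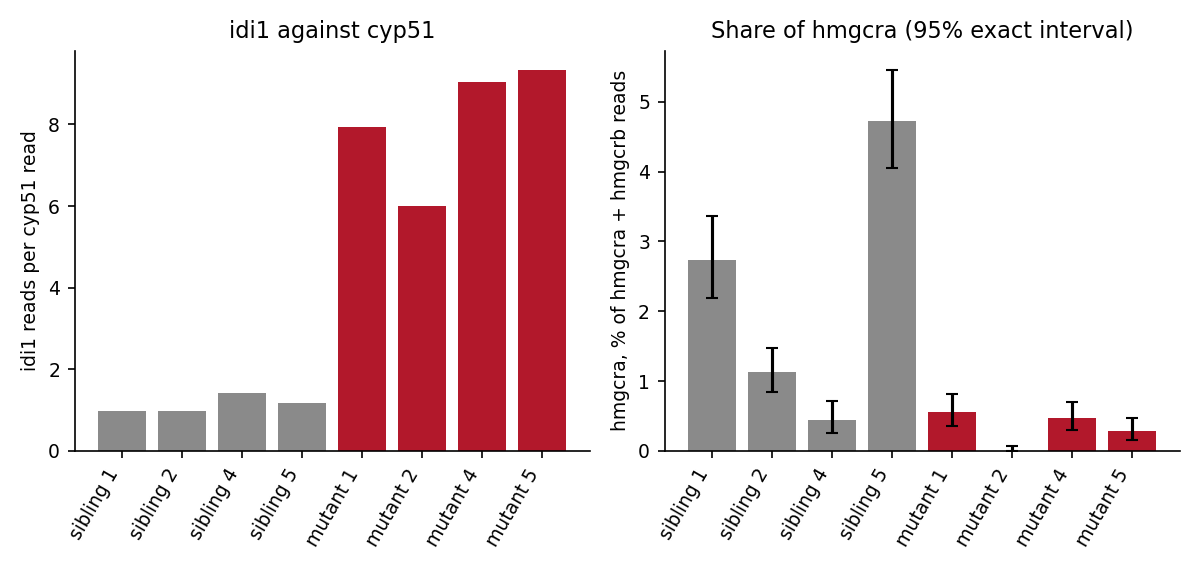
Left, reads of idi1 per read of cyp51 in each library. Right, hmgcra as a percentage of the reads of hmgcra and hmgcrb, with 95% exact intervals for counting error. The idi1 ratio is 5.99 or more in every mutant library and 1.43 or less in every sibling library, and the hmgcra share varies more among siblings than among mutants.

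Among the regulators, srebf2 held 79.9, 111, 110 and 87.5 CPM in sibling libraries 1, 2, 4 and 5 and 61.6, 84.7, 68.0 and 77.6 CPM in mutants. The mutant was lower in every number, although mutant library 2 lay above sibling library 1. srebf2 did not pass without the block (log2 fold change -0.41, SE 0.148, adjusted p = 0.0652, edgeR) and passed with replicate number as a block (0.0211), under library-size scaling (0.0141), with upper-quartile factors (0.0350), with the stricter filter (0.0250) and without sibling library 1 (0.0448). srebf1, the family member tied mainly to fatty acid synthesis, was at 3.07 ± 0.562 against 4.29 ± 0.593 CPM (adjusted p = 0.158), and scap at 3.31 ± 0.139 against 2.84 ± 1.01 CPM (adjusted p = 0.635).

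ldlra, a zebrafish LDL receptor gene, brings in cholesterol from lipoproteins. It held 8.34, 13.7, 4.31 and 10.1 CPM in sibling libraries 1, 2, 4 and 5 and 3.98, 4.17, 1.71 and 4.05 CPM in mutants. The groups did not overlap, by a narrow margin between sibling library 4 and mutant library 2, and library 4 was lowest in both genotypes. ldlra fell by 1.39 on the log2 scale (SE 0.394, adjusted p = 0.0261, edgeR, and 0.00249 with replicate number as a block). ldlra no longer passed without mutant library 1 (adjusted p = 0.0519) and without sibling library 1 (0.0505), 2 (0.0758) or 5 (0.0634). Another LDL receptor gene, ldlrb, counted in a further list, stood at 6.77 ± 2.01 CPM in mutants against 7.52 ± 1.94 CPM in siblings. ldlrb did not pass (log2 fold change -0.15, SE 0.286, adjusted p = 0.737, edgeR).

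soat1 encodes the acyltransferase that esterifies cholesterol for storage in droplets. It held 6.19, 12.6, 6.11 and 8.80 CPM in sibling libraries 1, 2, 4 and 5 and 20.5, 31.5, 22.9 and 19.3 CPM in mutants. Every mutant library lay above every sibling library. soat1 rose 2.79-fold (log2 fold change 1.48, SE 0.267, adjusted p = 0.00311, edgeR) and passed without each library in turn. Its relative soat2, of liver and intestine in mammals, had 1 to 9 reads in mutant libraries and 2 to 29 in siblings, was not tested, and overlaps igsf8. stard4, whose product carries sterols between membranes, held 23.2, 28.9, 23.8 and 19.1 CPM in siblings and 20.4, 25.7, 20.9 and 21.8 CPM in mutants, which overlapped (log2 fold change -0.10, adjusted p = 0.687).

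Paired by number, 7 of the 29 genes were higher in the mutant library of every number, namely acat2, hmgcs1, hmgcrb, idi1, fdps, ebp and soat1. Another 13 were lower in every number. Over all tested genes 25.4% were higher and 27.5% lower in every number.

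Neighbouring pathway genes were counted in further lists. Of 18 other sterol and prenyl enzyme genes 7 rose and 3 fell, or 38.9% and 16.7%, against 14.5% and 13.9% of all genes. The rises included nus1, for a subunit of the enzyme that makes dolichol precursors, from 45.0 ± 5.60 to 122 ± 16.1 CPM (2.71-fold, adjusted p = 9.34e-05, edgeR), and 2 subunit genes of protein prenyltransferases, rabggtb (1.97-fold) and fnta (1.62-fold). Of the other such subunit genes in the list, rabggta rose 1.68-fold. The genes fntb (adjusted p = 0.205, edgeR) and pggt1b (adjusted p = 0.876) did not pass. faxdc2, of the sterol desaturase family, fell from 72.9 ± 19.0 to 21.9 ± 5.45 CPM (adjusted p = 0.000683). tmem97, an SREBP target in human cells, fell from 4.75 ± 1.03 to 1.76 ± 0.437 CPM (adjusted p = 0.00566) and was singled out after its values were seen.

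Among 23 other genes of SREBP processing, degradation and lipoprotein uptake 3 rose and 2 fell, against 14.5% and 13.9% of all genes, and 5 rose with median-of-ratios factors or by DESeq2. stard3, a late endosomal cholesterol carrier, rose 2.18-fold, from 16.7 ± 2.42 to 36.5 ± 9.69 CPM, and the lipoprotein receptor gene lrp1ab rose 2.16-fold. ldlrap1a, for an adaptor of LDL receptor uptake, fell from 4.71 ± 1.32 to 2.27 ± 0.378 CPM (adjusted p = 0.0194, edgeR). That call was lost without mutant library 2 (0.0538) or sibling library 1 (0.0535) or 2 (0.0588). rnf145b, for a sterol-regulated ubiquitin ligase, fell by 0.30 on the log2 scale (adjusted p = 0.0312), a call lost without mutant library 1, 4 or 5 or sibling library 2, 4 or 5 (0.0743 to 0.115), with median-of-ratios factors (0.0684) and without the filter (0.133). The SREBP protease genes mbtps1 (adjusted p = 0.739) and mbtps2 (adjusted p = 0.854) did not pass.

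Of 13 tested SREBP1 fatty acid targets 0 rose and 4 fell, against 14.5% and 13.9% of all genes. scdb, a stearoyl-CoA desaturase gene, held 8.77, 12.7, 10.3 and 10.8 CPM in sibling libraries 1, 2, 4 and 5 and 2.45, 3.51, 6.42 and 5.28 CPM in mutants. The groups did not overlap, and scdb fell by 1.27 on the log2 scale (SE 0.30, adjusted p = 0.0117, edgeR). gpam, for the acyltransferase that begins glycerolipid synthesis, fell by 0.71 (SE 0.195, adjusted p = 0.0227), a call lost without sibling library 2 (0.0675), 4 (0.0539) or 5 (0.0676).

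The elongase and desaturase genes of polyunsaturated fatty acids were less stable. elovl5 fell by 0.64 (SE 0.193, adjusted p = 0.0347, edgeR), lost without mutant library 1, 2 or 5 or sibling library 2, 4 or 5 (0.0509 to 0.109), with median-of-ratios factors (0.0534) and without the filter (0.0644). fads2 fell by 2.17 on the log2 scale (SE 0.663, adjusted p = 0.0355), lost with replicate number as a block (0.0593) and without mutant library 2 or 5 or sibling library 1, 2 or 5 (0.0549 to 0.0963). The number that fell was 1 without sibling library 2 or 5 and 2 without mutant library 2 or 5 or sibling library 4. Under the block, and without sibling library 4, 1 gene of the list rose. The synthase gene fasn stood at 7.96, 11.7, 10.7 and 10.4 CPM in mutants against 18.7, 11.4, 15.1 and 12.2 CPM in siblings and did not pass (adjusted p = 0.0981).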

How the data were processed

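Polyadenylated RNA was sequenced from 8 libraries prepared by SMART-Seq v4, per the labels' protocols. The authors deposited raw read counts per Ensembl gene. The submitters' processing notes list HISAT2 2.0.5, StringTie 1.3.3b, featureCounts 1.5.0 and GRCz11 but give them no role. Whether counting used strand is not stated there. The deposited table also gives gene lengths, used for levels per kilobase, and another 16 per-library columns that were left aside. Columns were assigned to a genotype by name. Their numbers 1, 2, 4 and 5 do not match the titles, so columns were tied to a genotype only.

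Counts were filtered with filterByExpr (minimum count 10), scaled by TMM and tested in edgeR 4.0.16 (glmQLFTest, no covariates, two-sided) in R 4.3.3, with Benjamini-Hochberg adjustment over 16086 genes. The standard error is the log2 fold change divided by the square root of F. CPM values use TMM-scaled library sizes. Libraries of a genotype differed by a chi-square per degree of freedom of 45.8 to 94.8, so none repeats another. Same-numbered libraries deviated together (correlations of 0.187 to 0.407 over 13740 genes, against -0.255 to 0.00682 for different numbers), and the number was taken to pair them. Only the column names and this correlation, not the labels, give the pairing.

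Alternatives were other scalings and filters (none, or at least 5 CPM in 4 libraries, called the stricter filter), DESeq2 1.42.0, limma-voom (limma 3.58.1), a replicate block, glmTreat against a fold of 1.5, omission of each library, and omission of markers for other cell types. The procedure was tested on simulated data with 200 changed genes and independently drawn libraries. Here 4567 genes passed and libraries pair by number, so the simulation does not test the procedure under those conditions. Every pathway gene found is named, and values per library are given for genes past the threshold, for abundant genes and for others that bear on a result. Of each further list up to 4 changed genes with the smallest p are named, and some others that bear on a result. A further gene of these lists is not reported here. The members and lists were chosen with earlier results of these data known. No promoter or protein sequence was analysed here.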

Additional observations from a re-analysis of the deposited data

Results flagged for a closer look

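In 58 groups of 4 libraries (29 genes in 2 genotypes), 3 libraries stood far from the others of their genotype by Dixon's ratio at the 95% level. Chance flags about 1 in 20 groups, so 3 of 58 is no more than chance gives.

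nsdhl stood at 5.24 CPM in sibling library 2, against 2.00 to 2.48 CPM in the other siblings. The same library had the highest sum of hepatocyte markers (1273 CPM), and the part of those cells in the nsdhl value was not tested.

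insig2 stood at 12.7 CPM in sibling library 1, below the 17.1 to 17.9 CPM of the other siblings and inside the mutant range.

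ldlra stood at 1.71 CPM in mutant library 4, against 3.98 to 4.17 CPM in the other mutants. Sibling library 4 was likewise the lowest sibling, at 4.31 CPM.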

How the results depend on the processing

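Against a minimum fold of 1.5 (glmTreat) 861 genes were higher and 742 lower. Of the pathway genes 1 was then higher and 2 were lower, with 0 early genes higher, 2 late genes lower and 0 regulators lower. DESeq2, limma-voom and replicate number as a block each gave 5 pathway genes higher, 4 of them early. With the block 2 regulators were lower, as with library size alone and upper-quartile factors, and these scalings each gave 1 early gene higher. In each of DESeq2, library size alone and the stricter filter 1 early gene was lower. Under the stricter filter 2 late genes were lower, cyp51 and, newly, sc5d, and the other 4 late genes that fell were not tested. The median log2 fold change of the late genes still tested under that filter was -0.48, against -1.05 in the main test. Library size alone moved the median of the pathway genes to -0.39, from -0.21, and that of all genes to -0.26, from -0.09. It moved the median of the early genes to 0.13 from 0.31, and lss to -0.10 from 0.07. It gave 1659 higher and 3123 lower genes, or 34.7% higher, against 51.1%.

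With each library left out in turn, higher pathway genes numbered 1 to 5, lower ones 4 to 6, higher early genes 0 to 4, lower late genes 4 to 5 and lower regulators 0 to 1, and the median of the pathway genes ran from -0.38 to -0.16. 3 uncalled genes changed sign there, pmvk (-0.41 to 0.28), lss (-0.18 to 0.32) and stard4 (-0.17 to 0.039). cyp51, nsdhl and soat1 passed under every alternative run that could test them, and msmo1 and hsd17b7 under every one but glmTreat (adjusted p = 0.0793 and 0.0537). Leaving out markers of other cell types moved none of the counts by over 1.5 times. That omission takes away the marker genes only. Reads that other cells give to pathway genes stay in the counts, so it cannot show the part of those cells. Genes with few reads per library, hmgcra, sqlea, nsdhl and tm7sf2 among them, carry the widest errors.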

Other observations

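Targets of LXR factors, which drive a response to excess sterol, were counted apart. The same list holds an LXR gene, nr1h3, and genes of oxysterol enzymes, ch25h among them. Of 13 tested LXR targets and oxysterol genes 1 rose and 2 fell (2 and 3 with replicate number as a block, and 4 fell by limma-voom), against 14.5% and 13.9% of all genes. abca1a, for the transporter that exports cholesterol to lipoproteins, held 168, 143, 146 and 125 CPM in sibling libraries 1, 2, 4 and 5 and 90.3, 89.5, 70.1 and 75.5 CPM in mutants. The groups did not overlap, and abca1a fell by 0.84 on the log2 scale (SE 0.128, adjusted p = 0.00127, edgeR). Its more abundant paralog abca1b stood at 201 ± 49.3 CPM in mutants against 217 ± 14.6 CPM in siblings. abca1b did not pass (log2 fold change -0.11, SE 0.165, adjusted p = 0.661, edgeR). mylipa, for the ligase that degrades LDL receptors in mammals, fell by 0.76 (SE 0.200, adjusted p = 0.0187), and its call was lost without sibling library 4 (0.0515). The paralog mylipb, at 40.4 ± 9.45 CPM in mutants against 43.5 ± 5.64 CPM in siblings, did not pass (log2 fold change -0.11, adjusted p = 0.708, edgeR). ch25h, for cholesterol 25-hydroxylase, whose product restrains SREBP processing, stood at 34.3 ± 10.8 against 18.7 ± 6.04 CPM (SD, n = 4) and rose (log2 fold change 0.87, SE 0.275, adjusted p = 0.0403, and 0.00103 with replicate number as a block). That call was lost without mutant library 1, 2 or 4 or sibling library 1, 4 or 5 (0.0515 to 0.108), with upper-quartile factors (0.0531) and scaled by library size alone (0.0789).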
